A study of Arabidopsis thaliana with 12 samples.

Results

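The wild-type root response to nitrate was read from 6 of the 12 arrays of the study, chosen by their titles: 3 arrays of wild-type roots before nitrate (T0) and 3 after 30 min in nitrate (T0.5). The plants were Arabidopsis thaliana of the Columbia accession, grown for 10 days with 12.5 mM ammonium succinate and no other nitrogen source, under continuous light in liquid medium with sucrose. They were kept for 3 h in the same medium brought to pH 5.5, washed, and then either harvested (T0) or placed for 0.5 h in medium holding 25 mM KNO3 in place of the ammonium salt (T0.5). Each replicate pooled about 900 seedlings from 9 vessels and was 1 independent experiment, so a T0 and a T0.5 array with the same number form a pair. The other 6 arrays held roots of chl1-5, a mutant in the nitrate transporter CHL1, under the same conditions. They entered the fit as further groups and are described for the wild type's own genes. Addition of nitrate and of the potassium in its salt, withdrawal of ammonium and succinate, and transfer to a new vessel happened together at T0.5. These changes cannot be told apart.

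Nitrate is both a nutrient and a signal for roots. In Arabidopsis it is taken up by transporters of the NRT1 and NRT2 families, sensed in part through CHL1, and read out by NLP transcription factors, which switch on a first wave of genes within minutes. That wave is known for nitrate reduction, for the pathways that feed it with reducing power and carbon skeletons, and for GARP-type repressors of the HHO group that later damp the response.

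Roots were whole organs, so fewer cells of a type and less RNA per cell cannot be told apart. The tissue label was checked with the few cell type markers that had a named probe set. The root hair genes EXPA7 and EXPA18, both expansins, gave mean signals of 1299 ± 121 and 1052 ± 109 (SD, n = 3) at T0 and 757 ± 140 and 796 ± 51.2 at T0.5. GSO1, a receptor kinase needed for the endodermal barrier, gave 618 ± 95.5 and 431 ± 42.4, and AT1G09750, listed for the epidermis, cortex and cap, gave 467 ± 74.3 and 338 ± 96.5. All 4 means were lower at T0.5, but 9584 of all 14291 probe sets tested also had a negative log2 difference. EXPA7 and GSO1 passed the test described below, and GSO1 lost its call under other scalings of the arrays. The 1 leaf gene measured of 8 listed, RCA, which encodes Rubisco activase, gave 627 ± 64.8 at T0 and 637 ± 51.1 at T0.5 (log2 0.03, SE 0.10, adjusted p = 0.887). What share of the RNA came from shoot tissue was not tested. No marker of the stele or the meristem could be read. The authors' scaling had set the 12 arrays to one trimmed mean, but their medians ran from 175.9 to 195.4 signal units. Those of the wild-type T0 arrays, 195.15, 192.5 and 194.75, all lay above those of T0.5, 181.35, 185.5 and 175.9. The 3'/5' signal ratio, a sign of RNA quality, ran from 0.86 to 1.14 at T0 and from 1.03 to 1.38 at T0.5 for GAPDH, and from 1.68 to 2.2 and from 2.07 to 2.24 for ubiquitin. Those of actin were higher throughout, from 11.2 to 15.2 at T0 and from 10.5 to 12.6 at T0.5. All 3 ratios overlapped between the times; GAPDH and ubiquitin reached higher at T0.5 and actin reached lower. Their part in the results was not tested.

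Within 30 min, 1690 of 14291 probe sets tested (11.8%) passed a limma test of T0.5 against T0 at an adjusted p under 0.05, 819 higher (5.73%) and 871 lower (6.09%). Counts for the gene groups below stand against these shares, and no group was tested as a set. Members and lists were chosen with earlier results of these data known, so the counts are description only. Rises were larger than falls. The median rise among those called was 0.92 on the log2 scale and the median fall was -0.59, and 358 probe sets rose at least 2-fold while 130 fell at least 2-fold. At 4-fold the counts were 102 and 13, and at 8-fold they were 34 and 2. All 3 pairs moved the same way for 814 of the 819 rises and 869 of the 871 falls. The 3 arrays of T0 and the 3 of T0.5 did not overlap for 732 of the rises and 738 of the falls, against 25.3% of all probe sets tested. The T0 signal was dim, meaning under the 40th percentile of its array on all 3 arrays, for 74 rises, and the T0.5 signal was dim for 35 falls.

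The number of falls depended on how the arrays were scaled. The median log2 difference of all probe sets was -0.09 with the authors' scaling and 0.01 after scaling each array to the same median. The latter gave 1058 probe sets higher and 457 lower, so that 69.8% of the calls were rises against 48.5%. All 819 rises stayed called, and all 457 falls were among the 871. Replicate 2 mattered most: without its T0 array 566 rose and 399 fell, without its T0.5 array 579 and 450, and without all arrays of that number 398 and 206. Without the T0 array of replicate 3 the counts were 605 and 411, without its T0.5 array 617 and 454, and without that number 541 and 343.

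**Figure D1:**
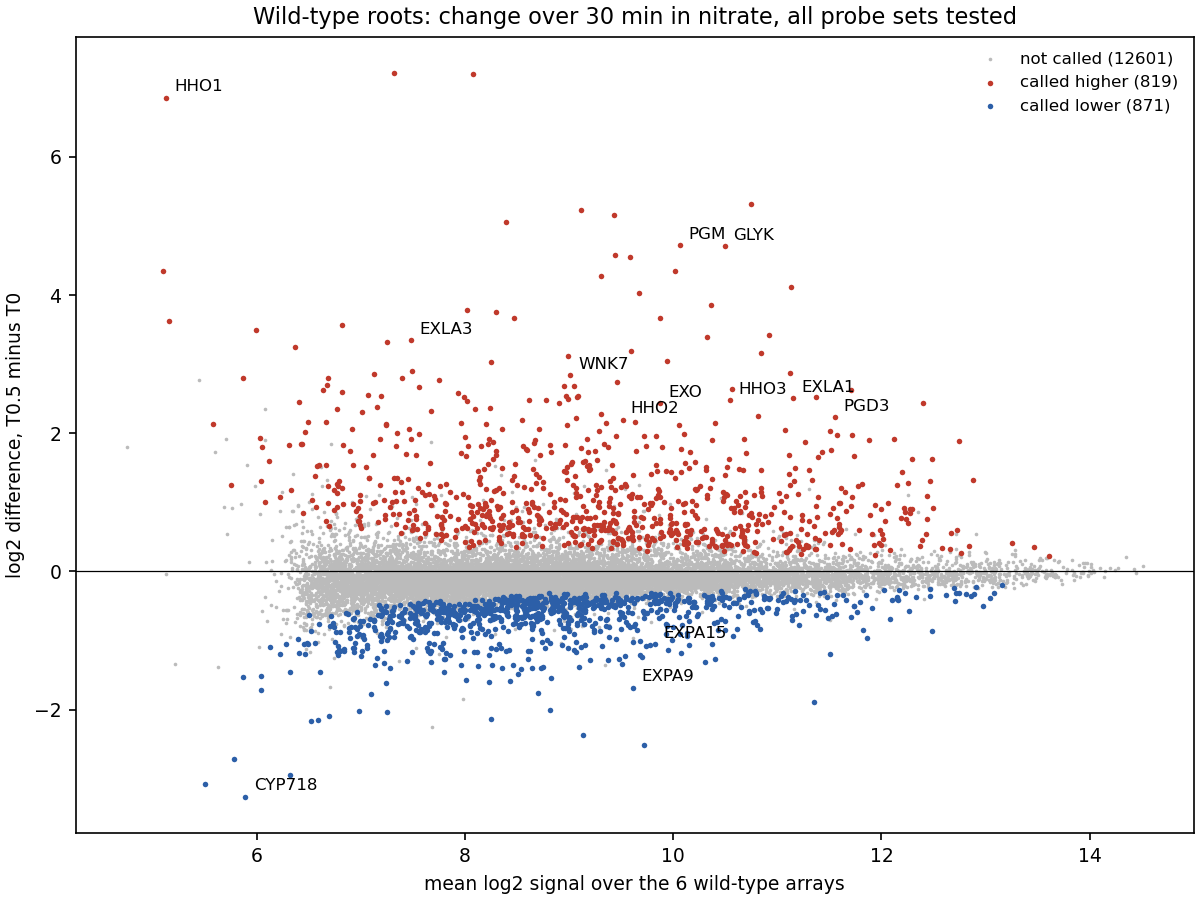
Log2 difference between T0.5 and T0 in wild-type roots (vertical axis) against the mean log2 signal over the 6 wild-type arrays (horizontal axis), 1 point for each of the 14291 probe sets tested. The 819 called higher (red) reach above 7 on the log2 scale, while the 871 called lower (blue) mostly lie between 0 and -2. Points at the left edge, such as HHO1 and CYP718, have weak signals.

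Regulators of the nitrate response were among the rises. Of 29 genes on a list of such regulators, 4 had a named probe set, all were tested, and all were higher (median 2.34, against -0.09 over all probe sets). The list was written with earlier results of these data known, so nothing is read from this count or median. HHO2 (AT1G68670), a GARP-type transcription factor that represses nitrate uptake genes, gave 341, 335 and 346 signal units at T0 in replicates 1, 2 and 3 and 1264, 1989 and 1524 at T0.5. All 3 T0.5 arrays lay far above the T0 arrays, a 4.59-fold rise (log2 2.2, SE 0.14, adjusted p = 8.97e-07). Its relative HHO3 (AT1G25550) went from 710, 575 and 620 to 2767, 3837 and 4181, 5.60-fold (log2 2.49, SE 0.24, adjusted p = 2.63e-05). Replicate 1 rose least and the groups again stayed apart. HHO1 (AT3G25790) was close to background at T0, with 1.2, 1.2 and 23.7, and reached 367, 486 and 300. Its direction was the same in all pairs, but its log2 difference of 6.86 (SE 0.93) rests on T0 values near zero. NRG2 (AT3G60320), a positive regulator of nitrate signalling, moved less, from a mean of 615 ± 50.7 to 914 ± 114 (log2 0.57, SE 0.11, adjusted p = 0.00457). The names of these 4 genes, of GLYK and of the pentose phosphate genes below come from the locus lists used here, since the annotation table gives those loci by number.

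Transport genes were few among the named probe sets. In the NRT1/PTR family, which carries nitrate, peptides, glucosinolates and hormones, 2 of 8 tested genes were higher and 1 lower (median -0.36). The family member NPF4.3 (AT1G59740) had 145, 157 and 227 at T0 and 336, 541 and 628 at T0.5 (log2 1.49, SE 0.17, adjusted p = 0.000104). The glucosinolate transporter GTR1 rose from 498 ± 36.0 to 958 ± 209 (log2 0.92, SE 0.19, adjusted p = 0.00793, and 0.0588 without the T0 array of replicate 2). Its homologue GTR2 stood at -0.28 and was not called. NPF6.2 (AT2G26690) was lower by a log2 difference of -0.47 (SE 0.13, adjusted p = 0.0368), with overlapping arrays, and its call was lost in 4 of the 6 fits that left out 1 wild-type array (adjusted p up to 0.163, when the T0.5 array of replicate 1 was omitted), as well as under median scaling. The high-affinity nitrate transporter NRT2.5, known for its expression in nitrogen-starved roots, went from 284 ± 74.2 to 182 ± 58.7 and was not called (log2 -0.66, adjusted p = 0.106). Of 10 sugar transporters, 1 was called, close to the 11.8% of all probe sets. It was SWEET16, which moves sugars across the vacuolar membrane. It read 942, 1013 and 1381 at T0 and 1970, 1974 and 2287 at T0.5 (log2 0.92, SE 0.11, adjusted p = 0.000164), with no overlap.

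Enzymes that supply carbon and reducing power included 2 of the 3 largest rises among probe sets with a named locus that were not dim at T0. PGM (AT1G78050), a phosphoglycerate mutase, read 214, 187 and 226 at T0 and 5513, 5748 and 5246 at T0.5. All 3 T0.5 arrays lay far above all T0 arrays, and the 3 pairs gave log2 ratios of 4.68, 4.94 and 4.54 (fit 4.72, SE 0.13, adjusted p = 5.24e-10). GLYK (AT1G80380), a glycerate kinase, read 267, 277 and 304 at T0 and 6242, 8086 and 8031 at T0.5 (26.2-fold, log2 4.71, SE 0.12, adjusted p = 3.97e-10). Both enzymes make phosphoglycerates or convert them into each other.

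In the oxidative pentose phosphate pathway, which makes NADPH, 2 of 4 tested genes were higher and none was lower (median 0.94). The 6-phosphogluconate dehydrogenase PGD1 (AT1G64190) went from 3412, 3630 and 3661 to 11797, 14543 and 13324 (3.69-fold, log2 1.89, SE 0.07, adjusted p = 5.49e-09). PGD3 (AT5G41670), its close relative, went from 1388, 1507 and 1274 to 6361, 8174 and 5297 (4.69-fold, log2 2.23, SE 0.12, adjusted p = 2.44e-07). PGD2 (AT3G02360), the isoform known from the cytosol and peroxisomes, stayed between 5590 and 6509 on all 6 arrays, with the times overlapping (log2 -0.02, SE 0.06, adjusted p = 0.839). A rise therefore marked 2 of the 3 isoforms measured. The transaldolase gene TRA1 (AT1G12230) stood at -0.01 (SE 0.11). Of 10 TCA cycle and related organic acid enzymes, 2 were higher. The plastid NAD-malate dehydrogenase gene MDH (AT3G47520), taken in by its name, rose evenly in the pairs, from 2086, 2297 and 2220 to 4266, 4604 and 4192 (1.98-fold, log2 0.98, SE 0.09, adjusted p = 1.28e-05). The other was IDH-VI, a subunit of NAD-isocitrate dehydrogenase (log2 0.30, SE 0.08, adjusted p = 0.0285), which was not called in any fit without 1 array (adjusted p up to 0.118, without the T0 array of replicate 3). In glycolysis, GAPC2 rose by 0.22 (SE 0.06, adjusted p = 0.0392, and 0.156 without the T0.5 array of replicate 1) beside PGM, and 2 of 4 genes were not called.

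**Figure D2:**
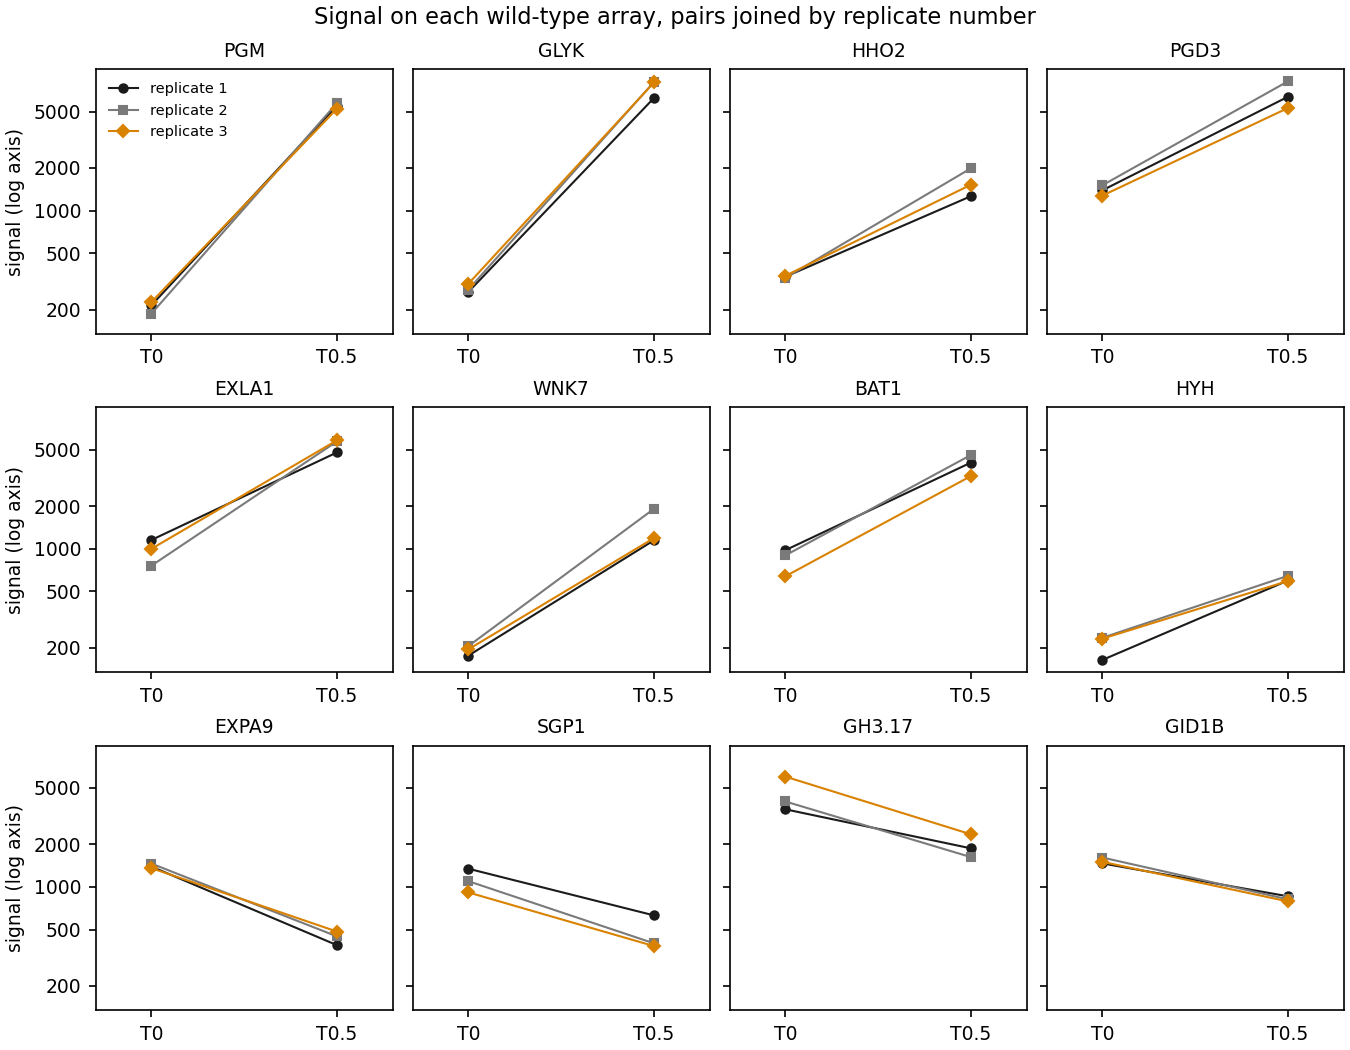
Signal on each wild-type array at T0 and T0.5 (log axis), with the 2 arrays of a replicate joined, for 12 named genes. In all 12 panels the 3 lines run the same way and the T0 and T0.5 arrays do not overlap; PGM and GLYK climb more than any other, and EXPA9, SGP1, GH3.17 and GID1B fall.

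Sulfur and nitrogen metabolism gave a few called genes. Of 3 sulfate assimilation genes, the ATP sulfurylase APS3 was higher (448, 623 and 541 against 611, 1416 and 1619, log2 1.07, SE 0.23, adjusted p = 0.00898). Its T0.5 array of replicate 1 lay inside the T0 range, and the call was lost in 3 of 6 fits without 1 array (adjusted p up to 0.0586, without the T0 array of replicate 3). ATP sulfurylase APS4 and sulfite reductase SIR stood at 0.03 and 0.25. Among 9 genes of amide and ureide metabolism, a group put together by symbol after the calls were seen, 2 were higher. Without the replicate term 1 of the 2 was called. GAT1_2.1, a glutamine amidotransferase-like gene, read 444, 341 and 882 at T0 and 748, 2491 and 5858 at T0.5 (log2 2.12, SE 0.38, adjusted p = 0.00312). Its step was small in replicate 1, whose T0.5 array lay inside the T0 range, and large in replicates 2 and 3. The asparaginase ASPGB1 rose from 184 ± 29.3 to 460 ± 160 (log2 1.27, SE 0.25, adjusted p = 0.0054), while its homologue ASPGA1 stood at -0.22.

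Transcription factors of the bZIP and WRKY families were called in both directions. Of 14 bZIP factors, 2 were higher and 1 lower (median -0.12). bZIP58 read 170, 186 and 235 at T0 and 636, 435 and 597 at T0.5 (log2 1.49, SE 0.15, adjusted p = 3.68e-05). BZIP53, a factor known from low-energy and seed gene regulation, read 2402, 2216 and 2231 against 3879, 7233 and 5573 (log2 1.24, SE 0.20, adjusted p = 0.00132). Neither overlapped between the times. BZIP61 was lower (log2 -0.97, SE 0.26, adjusted p = 0.0331, and 0.151 without replicate 2 at T0.5). Under median scaling BZIP61 was not called (0.0502). HYH, the bZIP homologue of the light-signalling factor HY5, was grouped with light genes by symbol and rose from 164, 235 and 232 to 597, 644 and 592 (2.94-fold, log2 1.56, SE 0.13, adjusted p = 6.18e-06). Of 6 WRKY factors, 1 was higher and 2 lower. WRKY22, a factor of early immune signalling, rose from 162, 127 and 127 to 579, 377 and 427 (log2 1.72, SE 0.16, adjusted p = 2.59e-05). WRKY47 and WRKY6, both linked to nutrient shortage, were lower by -0.90 (SE 0.14, adjusted p = 0.00114) and -0.76 (SE 0.16, adjusted p = 0.00925, and 0.0632 without the T0 array of replicate 2). The arrays of WRKY47 overlapped between the times.

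Signalling proteins included WNK7, a kinase of the WNK group, which rose in every pair from 176, 206 and 195 to 1148, 1915 and 1191 (7.19-fold, log2 2.85, SE 0.22, adjusted p = 4.3e-06). The calmodulin-like gene CML38, known to answer touch, wounding and low oxygen, read 176, 220 and 139 at T0 and 324, 1160 and 1375 at T0.5 (log2 2.2, SE 0.50, adjusted p = 0.0142). Replicate 1 gave the smallest step, and the call was lost in 4 of 6 fits without 1 array (adjusted p up to 0.087, without the T0 array of replicate 3). Of the 8 calmodulin-like and EF-hand genes, CML38 was the 1 called higher and CML43 the 1 called lower (log2 -0.67, SE 0.13, adjusted p = 0.00608, overlapping arrays). CML37, CML39 (AT1G76640) and CML42 had log2 differences from 0.77 to 0.93 and were not called. In the list of touch and early stress genes 1 of 3 was called, CML38 itself, with STZ at 0.49 and WRKY53 at 0.24.

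Receptor kinases of the cell surface were grouped by symbol after the calls were seen, and of 7 tested, 3 were higher and 1 lower (median 0.25). PSY1R, the receptor-like kinase named for the PSY1 growth peptide, read 557, 567 and 641 at T0 and 1586, 2039 and 1303 at T0.5 (log2 1.46, SE 0.16, adjusted p = 8.55e-05). THE1, which senses cell wall damage, went from 493, 506 and 421 to 849, 912 and 1086 (log2 1.00, SE 0.13, adjusted p = 0.000304), and its relative FER went from 2155, 2509 and 2654 to 3040, 3873 and 4202 (log2 0.60, SE 0.08, adjusted p = 0.000383). None of the 3 overlapped between the times. GSO1 was the 1 called lower (log2 -0.51, SE 0.14, adjusted p = 0.0393), and the brassinosteroid receptor gene BRL1 stood at -0.51 and was not called. The GSO1 call was lost under median scaling and in 4 of 6 fits without 1 array (adjusted p up to 0.181, without replicate 2 at T0.5). FER binds RALF peptides, and of 6 RALF genes RALFL33 was the 1 called. It rose from 2113, 2151 and 2386 to 3826, 4109 and 5372 (log2 0.99, SE 0.12, adjusted p = 0.000202), while RALFL27, RALFL31, RALFL24, RALFL32 and RALFL34 stood between -0.64 and -0.05.

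Cell wall genes split by family. Expansins loosen the wall so that cells can extend, and of 12 tested, 3 were higher and 3 lower (median -0.18). All 3 rises were expansin-like A genes and all 3 falls were alpha-expansins. EXLA1 read 1152, 759 and 998 at T0 and 4789, 5733 and 5832 at T0.5 (5.68-fold, log2 2.51, SE 0.18, adjusted p = 2.2e-06). EXLA2 rose from 44.2, 49.8 and 49.8, all dim, to 136, 294 and 244 (log2 2.16, SE 0.32, adjusted p = 0.000916), and EXLA3 from 72.4, 39.2 and 61.8, dim as well, to 276, 805 and 834 (log2 3.35, SE 0.90, adjusted p = 0.0323). The EXLA3 call was lost in 5 of 6 fits without 1 array (adjusted p up to 0.163, without the T0.5 array of replicate 2). EXPA9 fell from 1391, 1460 and 1356 to 388, 447 and 483 (3.21-fold, log2 -1.68, SE 0.10, adjusted p = 5.8e-07). EXPA15 went from 1155, 1553 and 1251 to 464, 702 and 770 (log2 -1.05, SE 0.14, adjusted p = 0.000383). EXPA7, the root hair expansin, fell by 0.79 on the log2 scale (SE 0.12, adjusted p = 0.00114), and EXPA18, also of root hairs, stood at -0.40 (adjusted p = 0.0627). No T0.5 array of EXPA9, EXPA15 or EXPA7 reached a T0 value. The split of EXLA from EXPA genes held under median and quantile scaling, with 3 genes called each way, and without the replicate term EXLA3 was not called (adjusted p = 0.0692).

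Enzymes that build or remodel wall polysaccharides were among the calls in both directions. Xyloglucan endotransglucosylases cut and rejoin xyloglucan, and 3 of 8 were higher with none lower (median 0.28). Without the replicate term 1 of the 3 was called. XTH18 went from 1553, 1769 and 1469 to 2747, 3808 and 3940 (log2 1.12, SE 0.17, adjusted p = 0.000901). XTH21 and XTH20 rose by 0.80 and 0.58 (SE 0.15 and 0.11), the latter with overlapping arrays. Among 7 cellulose synthase-like genes, grouped by symbol after the calls were seen, CSLC04, a xyloglucan backbone synthase, rose from 576, 722 and 743 to 1179, 2634 and 2268 (log2 1.5, SE 0.24, adjusted p = 0.00132). CSLA03, of the glucomannan synthase family, rose from 207, 390 and 346 to 770, 930 and 784 (log2 1.44, SE 0.23, adjusted p = 0.00134). CSLD2 was called at 0.37 (SE 0.10, adjusted p = 0.0329), with the call lost in all 6 fits without 1 array (adjusted p up to 0.156, without the T0 array of replicate 3). The pectin methylesterase gene ATPMEPCRB rose from 273 ± 101 to 478 ± 108 (log2 0.86, SE 0.15, adjusted p = 0.00242), and was not called without the replicate term. Of 11 glycosyl hydrolases of the GH9 and BGLU groups, 1 was higher, BGLU15 (log2 0.37), and 2 lower, GH9B13 (-0.47) and GH9B7 (-0.29), both not called under median scaling.

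**Figure D3:**
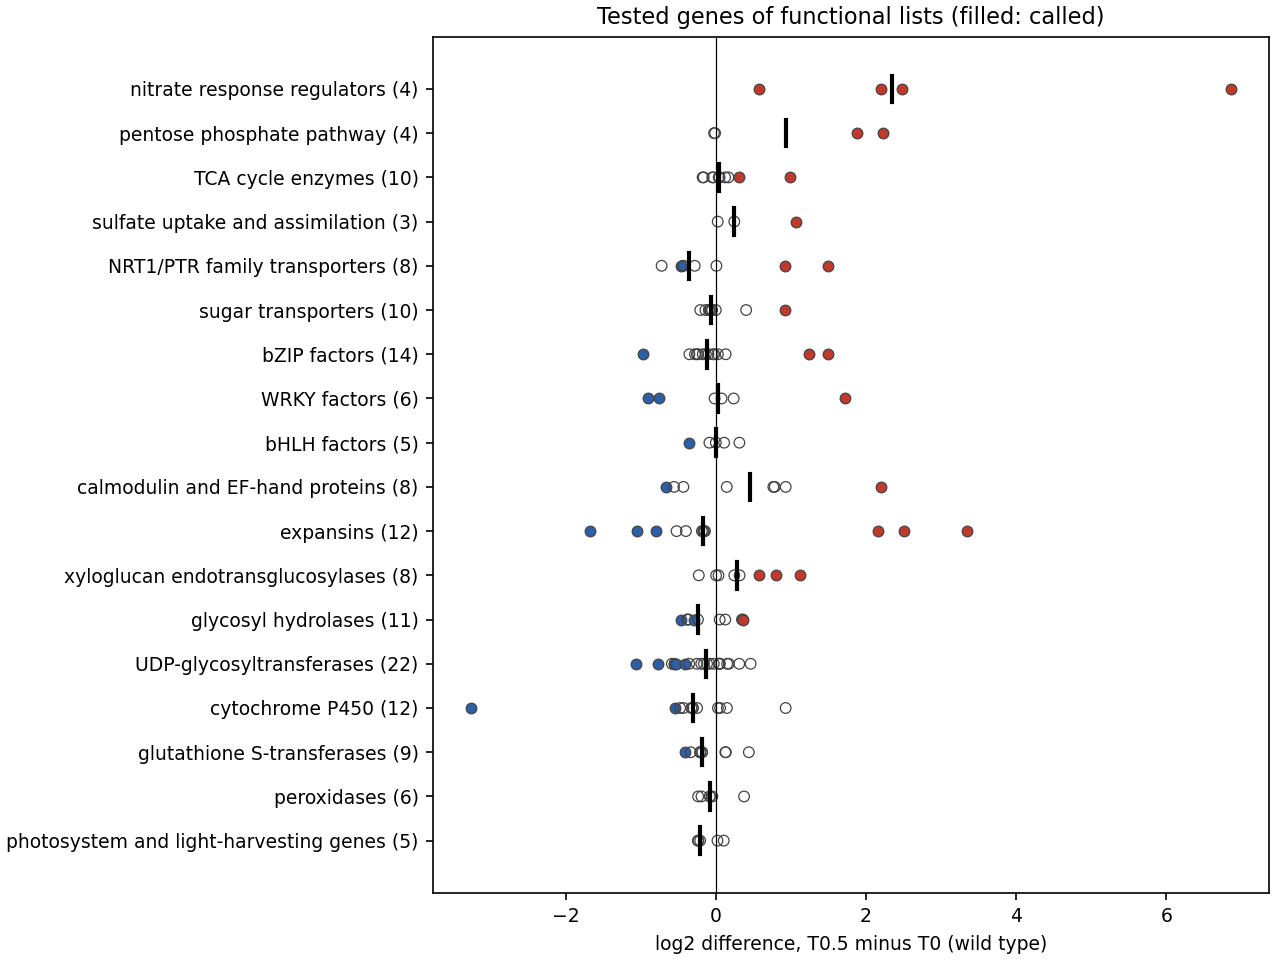
Log2 difference between T0.5 and T0 for the tested genes of 18 functional lists, with the number tested in brackets, 1 circle for each gene. Filled circles passed the test (red higher, blue lower), open circles did not, and the vertical tick is the median of the list. The nitrate regulators lie wholly to the right, the expansins lie on both sides, and the UDP-glycosyltransferases called lie to the left.

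Genes of growth hormones changed in both directions. EXO, a brassinosteroid-responsive gene that promotes cell expansion, rose from 432, 316 and 482 to 1327, 2178 and 3632 (5.42-fold, log2 2.44, SE 0.20, adjusted p = 7.64e-06). BAT1 (AT4G31910), an acyltransferase that inactivates brassinosteroids, read 976, 897 and 639 at T0 and 4059, 4592 and 3261 at T0.5 (4.77-fold, log2 2.25, SE 0.12, adjusted p = 2.08e-07). BRH1, a RING-finger gene repressed by brassinosteroid, fell from 832, 799 and 728 to 454, 530 and 431 (log2 -0.74, SE 0.12, adjusted p = 0.0016). BAT1 and BRH1 were picked out after their values were seen, as were the genes of the groups by symbol below.

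Both tested GH3 genes, whose enzymes attach amino acids to auxin, were lower. GH3.17 fell from 3529, 4008 and 6002 to 1870, 1621 and 2349 (2.28-fold, log2 -1.19, SE 0.12, adjusted p = 4.16e-05), and GH3.5, listed under its name WES1, from 632, 521 and 597 to 384, 407 and 378 (log2 -0.58, SE 0.11, adjusted p = 0.00457). No T0.5 array reached a T0 value in either gene. The 1 tested gene of the cytokinin list, UGT76C2, which inactivates cytokinin by N-glucosylation, fell from 739, 716 and 670 to 417, 329 and 283 (log2 -1.06, SE 0.11, adjusted p = 4.55e-05). All 3 gibberellin receptor genes had negative differences, as did 9584 of the 14291 probe sets tested. GID1B fell from 1465, 1612 and 1503 to 858, 817 and 789 (1.86-fold, log2 -0.89, SE 0.09, adjusted p = 4.42e-05). GID1A was called at -0.36 (SE 0.10, adjusted p = 0.0394), but not under median scaling (adjusted p = 0.121), and not in 5 of 6 fits without 1 array (up to 0.171, without the T0.5 array of replicate 3). GID1C stood at -0.47 and was not called (adjusted p = 0.0677).

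Falls were also found in secondary metabolism. UDP-glycosyltransferases attach sugars to hormones and phenolics. Of 22 taken in by name and tested, 5 were lower and none higher (median -0.14), against 6.09% lower and 5.73% higher over all probe sets. Under median scaling 4 were lower and 1 higher. UGT72E2 and UGT72E3, tested genes of the same family, are left out of the 22 and counted in the phenylpropanoid group below. UGT72E1, which glucosylates lignin precursors, went from 3161, 2240 and 1822 to 1738, 1381 and 1075 (log2 -0.77, SE 0.08, adjusted p = 4.93e-05). All 3 pairs fell alike, by 0.86, 0.70 and 0.76, across replicates of different level, and without the replicate term the gene was not called (adjusted p = 0.137). The flavonoid glucosyltransferase UGT78D2 fell by 0.53 (SE 0.11, adjusted p = 0.00944, and 0.0684 without the T0 array of replicate 2). Of 9 phenylpropanoid and lignin genes, grouped by symbol after the calls were seen, 4 were lower and none higher (median -0.37), against the same shares. Under median scaling 1 of them, UGT72E1, was lower. Because the group was chosen in this way, nothing is read from its count, and UGT72E1 is counted in both groups. HCT, a hydroxycinnamoyl transferase of lignin synthesis, was called at -0.40 (SE 0.09, adjusted p = 0.0111, and 0.0757 under median scaling). CYP84A4 was called at -0.54 (SE 0.15, adjusted p = 0.0331, and 0.0823 under median scaling). UGT72E2 was called at -0.68 (SE 0.18, adjusted p = 0.0285, and 0.0605 under median scaling).

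Of 12 cytochrome P450 genes, 2 were lower, CYP718 and CYP84A4, and none higher, against 6.09% lower and 5.73% higher over all probe sets. Under median scaling 1 was lower. CYP84A4 is the gene already counted in the phenylpropanoid group above. CYP718 had the largest fitted fall of a gene that was not dim at either time, -3.26 (SE 0.69, adjusted p = 0.00898). Its signals were 149, 170 and 243 at T0 and 113, 5.3 and 11.7 at T0.5, so the fall came from replicates 2 and 3, while replicate 1 fell by 0.40. The call was lost in 4 of the 6 fits without 1 array (adjusted p up to 0.0626, without the T0 array of replicate 2).

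Other falls with even steps were those of the small GTPase genes SGP1 and SGP2. SGP1 read 1344, 1098 and 914 at T0 and 629, 399 and 382 at T0.5 (2.41-fold, log2 -1.27, SE 0.12, adjusted p = 2.69e-05). SGP2 read 374, 329 and 226 at T0 and 181, 153 and 92.7 at T0.5 (2.21-fold, log2 -1.15, SE 0.12, adjusted p = 4.33e-05, but 0.0524 without the replicate term). HIS1-3, a linker histone gene induced by drought, fell from 1643, 956 and 1229 to 675, 467 and 648 (log2 -1.08, SE 0.11, adjusted p = 4.67e-05). Of the other 6 histone genes with a symbol, HTB11 was called (log2 -0.37, SE 0.11, adjusted p = 0.0465, and 0.212 without the T0.5 array of replicate 2). The matrix metalloproteinase gene MMP fell from 757 ± 160 to 348 ± 35.1 (log2 -1.10, SE 0.18, adjusted p = 0.00146).

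**Figure D4:**
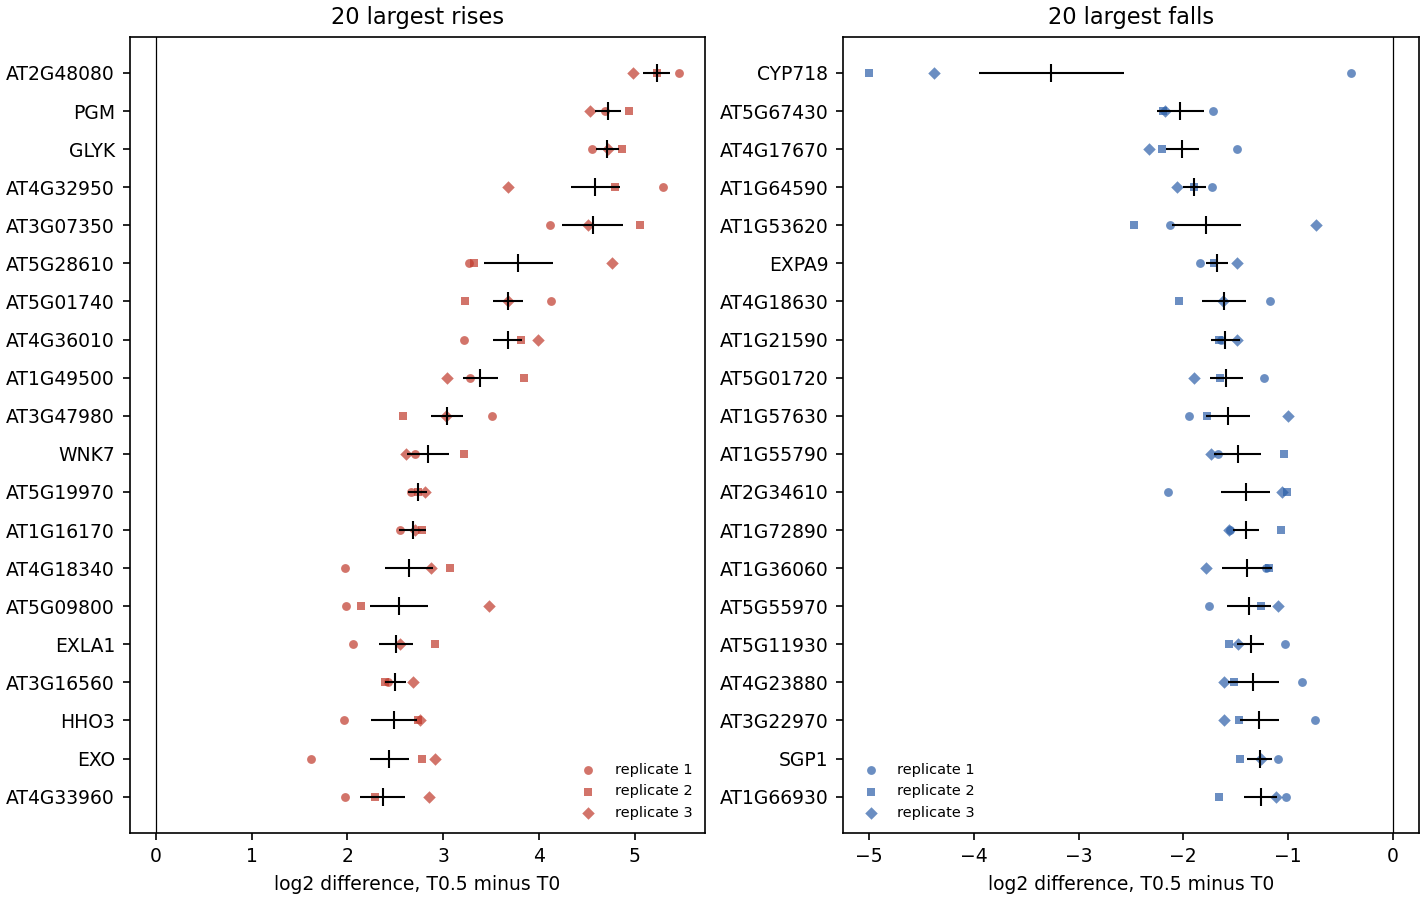
Log2 difference of each replicate pair (circle, square and diamond for replicates 1, 2 and 3) for the 20 largest rises (left) and 20 largest falls (right) among named, non-dim genes whose arrays did not overlap. The vertical tick is the fitted value and the bar its SE. The horizontal scales differ between the panels. Pairs of PGM, GLYK and AT5G19970 lie close together, and those of CYP718 are spread from -0.40 to -5.0.

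Many genes of the response are known here by locus number alone, as are most genes tested. Of the 7744 probe sets tested that had 1 gene, those of 1054 genes carried a symbol. Of the 20 largest rises, 6 had a name, some of them from the locus lists, and of the 20 largest falls 3. The log2 differences of the 20 rises ran from 2.37 to 5.23, their SE from 0.10 to 0.36, and all 20 were called without the replicate term. The steepest, AT2G48080, read 64.6, 113 and 103 at T0 and 2850, 4237 and 3258 at T0.5 (37.5-fold, log2 5.23, SE 0.14). AT5G19970 rose very evenly, by 2.66, 2.74 and 2.81 in the 3 pairs. The 20 falls ran from -1.26 to -3.26 with SE from 0.10 to 0.69, and 19 of them were called without the replicate term. The exception was AT5G67430, which read 462, 319 and 196 at T0 and 141, 70.0 and 43.5 at T0.5. Its pairs fell by 1.72, 2.19 and 2.17 (fit -2.03, SE 0.23, adjusted p = 9.56e-05), while its replicates differed in level, and its adjusted p without the replicate term was 0.0733. AT1G64590 fell from the highest level of the 20, 5874, 5455 and 3959, to 1777, 1466 and 950 (3.71-fold, log2 -1.89, SE 0.11).

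Of the 1690 probe sets called, 886 had 1 gene, 25 had several and 779 were not listed in the annotation table. Of all 14291 tested, 7744 had 1 gene, a similar share. The 3 largest unnamed rises were 265475_at, 259365_at and 264859_at. Probe set 265475_at went from 194, 315 and 326 to 10372, 12341 and 10026 (40.1-fold, log2 5.33, SE 0.15, adjusted p = 5.24e-10), above the level of any other of the largest rises. The 3 largest unnamed falls were 246821_at, 253515_at and 257690_at (log2 -2.51, -2.36 and -2.13). Only 27 of the 187 genes on the locus lists had a named probe set. Nitrate and nitrite reductase, ammonium assimilation and most nitrate transporters could therefore not be read by name, though their probe sets may be among the unnamed ones.

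Other groups are given against the 11.8% of all probe sets called in either direction, and nothing is read from counts this small. None of 5 photosystem genes, 6 peroxidases, 7 tubulins or 8 plant U-box ubiquitin ligases was called by limma. At an unadjusted p under 0.05 the whole table held 3850 probe sets. Of 17 trichome birefringence-like genes, which acetylate wall polymers, 1 was called, and of 10 ATG8 and ATG3 autophagy genes 1, ATG8E, was lower (log2 -0.44, SE 0.11, adjusted p = 0.0251, and 0.096 under median scaling). Of 11 light and flowering genes grouped by symbol 4 were higher, HYH, FHL, SMZ and ATC, and GI, the clock gene, stood at -0.09. Of 9 cold and dehydration genes 3 were higher, SRC2, LTI30 and COR47, and 1 lower, XERICO. The calls of FHL, SMZ, ATC, SRC2, LTI30 and XERICO were lost in 4, 2, 5, 4, 3 and 3 of the 6 fits without 1 array, with adjusted p up to 0.162, 0.0844 and 0.103 (all omitting replicate 2 at T0.5), and 0.0941, 0.12 and 0.108 (all without the T0 array of replicate 3). The COR47 arrays read 6585, 6606 and 6213 at T0 and 9145, 8518 and 7375 at T0.5 (log2 0.36, SE 0.07, adjusted p = 0.00357).

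In chl1-5 the same genes were read on other arrays of the same experiments. PGM rose by 3.67 there, HHO2 by 1.68, PGD3 by 1.40 and EXLA1 by 2.69 on the log2 scale, and EXPA9 fell by 1.40. The response of chl1-5 minus that of wild type was not called for these 5 genes. In all, 17 of 14291 probe sets (0.119%) differed between the responses. For PGM the difference was -1.05 (adjusted p = 0.0819).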

How the data were processed

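Total RNA was labelled and hybridised to one-colour Affymetrix ATH1 arrays, per the labels' protocols. The deposited values are intensities on a linear scale, 1 per probe set, which the authors computed with MAS5, per the submitters' processing notes (version not given in the sources used here); each array had a trimmed mean between 499.4 and 500.6. Signals were floored at 0.1 and log2-transformed. After leaving out 64 controls, a probe set was tested if it reached the 40th percentile of all signals on 3 or more of the 12 arrays. No detection calls were used.

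One limma model (limma 3.58.1, R 4.3.3) held 4 group means and the replicate number as a block, with a variance trend. Tests were two-sided, and calls were made at a Benjamini-Hochberg adjusted p under 0.05 over all probe sets. The block follows the labels, by which each number is 1 independent experiment. Deviations from the group mean correlated at 0.32, 0.28 and 0.34 for same-numbered wild-type arrays, and at -0.25 to -0.11 for other pairs. Because deviations cancel within each group, positive same-numbered pairs force the others to be negative on average. The negative values are therefore not read as evidence for the block. Single genes were named from the platform table matched to TAIR10.1 (13484 of 13513 probe sets with 1 gene). Named genes were the 20 largest rises and falls called with no overlap and not dim, 6 and 6 involving dim signals, 3 and 3 unnamed probe sets, and up to 4 called members of each list; where a gene had several probe sets the brightest stood for it. Members and lists were chosen with earlier results of these data known. The script was tested on simulated data. The number of arrays limits the precision.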

Additional observations from a re-analysis of the deposited data

Results flagged for a closer look

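Of 99 genes and probe sets named by the rule, 5 rose by different amounts in the 2 genotypes in a limma test of the difference itself, the chl1-5 response minus the wild-type response. Over all probe sets tested, 17 of 14291 (0.119%) passed that test. In each of the 5 the wild-type rise was the larger, and all 5 also rose in chl1-5. The 99 were chosen by their wild-type response, and the same arrays enter the difference. The choice itself therefore favours genes with the larger change in wild type, and nothing is read from the shared direction. AT5G19970 rose by 2.74 in wild type and 1.02 in chl1-5 (difference -1.72, adjusted p = 0.000753). AT5G01740 rose by 3.68 and 1.62 (difference -2.05, adjusted p = 0.00591), and GLYK by 4.71 and 3.24 (difference -1.47, adjusted p = 0.00724). AT2G48080 rose by 5.23 and 3.85 (difference -1.38, adjusted p = 0.0297), and AT3G16560 by 2.5 and 1.5 (difference -1.0, adjusted p = 0.0388). Without the replicate block AT5G19970 kept its call (adjusted p = 0.00679), and the other 4 did not, with adjusted p of 0.134 for AT5G01740, 0.305 for GLYK and AT3G16560, and 1.00 for AT2G48080. All 5 were called with median scaling, quantile normalization, a floor of 16 and no filter, with adjusted p from 0.000708 to 0.0497.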

How the results depend on the processing

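None of the 99 named results changed direction under any of the 18 alternatives. Without the replicate block, which the pairing by experiment calls for, 491 probe sets were higher and 306 lower, all among the 1690. In a fit of the wild-type arrays alone 393 were lower, and under median scaling 457. Leaving out 1 wild-type array gave 566 to 814 higher and 399 to 706 lower, and leaving out a replicate number gave 398 to 928 higher and 206 to 782 lower. The other alternatives (quantile normalization, a floor or pseudocount of 16, no filter, the 60th percentile filter, no variance trend) gave counts within 1.5 times of the main ones. Of the 99, 26 lost their call without the block, 16 with the wild-type arrays alone, 10 under median scaling, 8 under quantile normalization, 9 with no filter and 8 without the variance trend. Without 1 array 8 to 21 did so, and without a replicate number 10 to 33. The floor and pseudocount of 16 lost none, and under the 60th percentile filter all 85 still tested stayed called. Of 184 tested members of the locus and name lists 27 were higher and 24 lower, beside 5.73% and 6.09% of all probe sets. The lists were chosen with earlier results of these data known, so nothing is read from this count. The lower count was 9 without the replicate block, 12 with the wild-type arrays alone and 13 under median scaling. Without 1 array 21 to 25 were higher and 10 to 24 lower, and without a replicate number 17 to 31 and 8 to 27. The causes were not tested. Replicates were separate experiments, but 3 pairs limit what small changes can be called. Signals near background, as for HHO1, AT5G10210 and CYP718, leave the size of a change poorly known.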

Other observations

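Other genes with a symbol that were called fall outside the groups above and were picked after their values were seen. NANA, an aspartic protease gene linked to chloroplast function, rose from 617 ± 113 to 1662 ± 90.0 (SD, n = 3; log2 1.44, SE 0.15, adjusted p = 4.67e-05). ULT1, a developmental regulator that counteracts Polycomb repression, rose from 204, 224 and 239 to 315, 458 and 427 (log2 0.83, SE 0.12, adjusted p = 0.000641). The ubiquitin-conjugating enzyme gene UBC18 went from 530 ± 6.41 to 962 ± 222 (log2 0.84, SE 0.14, adjusted p = 0.00172), and it was the 1 called of 11 such genes. LPR2, a multicopper oxidase gene of the root response to low phosphate, rose in 3 nearly equal steps of 0.47, 0.55 and 0.51 (fit 0.51, SE 0.10, adjusted p = 0.00617).

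In lipid metabolism the phosphoethanolamine methyltransferase gene PMEAMT rose from 4586 ± 273 to 6310 ± 373 (log2 0.46, SE 0.08, adjusted p = 0.00186). The manganese transporter gene MTP11 rose from 407 ± 67.1 to 702 ± 61.1 (log2 0.80, SE 0.15, adjusted p = 0.00417). In chl1-5 it stood at 0.13 and was not called. The limma test of the difference of the responses gave -0.67 and was not called either (adjusted p = 1.00), which does not show equal responses.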
